A study of Homo sapiens with 4 samples.

Results

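OXCT1 and 4 further genes of ketone body metabolism, ACAT1, HMGCS1, BDH1 and BDH2, were followed in ESCC (esophageal squamous cell carcinoma) cells through the poly(A) sites of their mRNAs. PAS-seq reads mRNA from its poly(A) end, which gives the position of cleavage, and it covered 4 libraries. KYSE30 and TE-1, both established ESCC cell lines, gave 1 library each of cells treated with 20 mM l-lactate for 24 h and 1 library each of PBS control cells. The cell line field of both control samples names another line (KYSE32 and TE-3), while the sample titles give K30 and TE1, and the titles were followed. A PAS cluster (PAC), a group of neighboring cleavage sites, was taken as a member when its dominant site (the position with its highest tag number) lay on the same strand within the GENCODE 44 span of a member gene. These were 9 of the 17627 PACs listed, 2 in OXCT1, 1 in ACAT1, 2 in HMGCS1, 3 in BDH1 and 1 in BDH2. OXCT1 was selected on measured values, namely a higher use of its distal poly(A) site with l-lactate in both lines, so its response to l-lactate is described here without a test. The others were chosen by their place in ketone body metabolism, with earlier results of these data known. No source says whether libraries came from separate cultures beyond line and treatment, and the only repeats of a treatment are the 2 lines, so p-values measure only the spread between these libraries.

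Ketone bodies, acetoacetate and β-hydroxybutyrate, are made from acetyl-CoA in liver mitochondria and burned by other tissues and by many tumor cells. OXCT1 (SCOT) is the mitochondrial enzyme that commits acetoacetate to use by moving CoA onto it from succinyl-CoA. ACAT1 then splits acetoacetyl-CoA into acetyl-CoA, and BDH1 interconverts β-hydroxybutyrate and acetoacetate in mitochondria. BDH2 is a cytosolic short-chain dehydrogenase first described as acting on β-hydroxybutyrate. HMGCS1 is the cytosolic HMG-CoA synthase, which feeds the mevalonate pathway to cholesterol. A 3′ UTR can hold several poly(A) sites. Use of the proximal site (pPAS) gives a short 3′ UTR and use of the distal site (dPAS) a long one. The encoded protein sequence is the same, while the amount of protein may differ.

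The genomic stretches just upstream of the dominant sites are shown because they hold the poly(A) signals between which OXCT1, HMGCS1 and BDH1 choose. Each is 30 nt of GRCh38, written as DNA, 5′ to 3′ on the strand of the transcript, and ends at the dominant site, except for ACAT1, where it ends 2 nt before it. Capitals mark the poly(A) signal, AATAAA or ATTAAA.
OXCT1 proximal, TE-1 site, chr5:41731531-41731560, minus strand: cattttAATAAAaagcaaaaggagcattta
OXCT1 proximal, KYSE30 site, chr5:41731525-41731554, minus strand: AATAAAaagcaaaaggagcatttataatta
OXCT1 distal, chr5:41730065-41730094, minus strand: ggaatacAATAAAtattctaaagtgatgta
ACAT1, chr11:108147562-108147591, plus strand: AATAAAtttcttcttctgcttttttcttgg
HMGCS1 proximal, chr5:43290753-43290782, minus strand: atctccaATTAAAaaattttttaacatgta
HMGCS1 distal, chr5:43289395-43289424, minus strand: tttgaAATAAAgttttagagaaatgtttca
BDH1 proximal, chr3:197511575-197511604, minus strand: atATTAAAaacagatctcatttgatcctta
BDH1 distal, chr3:197509783-197509812, minus strand: gctgaagtttATTAAAggaaaatagatgga
BDH1 intronic, chr3:197516366-197516395, minus strand: tcatgtttcATTAAActtttttggatagta
BDH2, chr4:103079478-103079507, minus strand: cattgtaaagaAATAAAaatattgaactca

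AATAAA was found in the 50 nt upstream of 5 of the 8 member PACs in 3′ UTRs, against 66.7% of 13584 such PACs in the series, and ATTAAA before 4 of the 8, against 20.02%. Both OXCT1 PACs had AATAAA, so the choice in this gene lay between sites with the same signal. In HMGCS1 the distal site had AATAAA and the proximal site only ATTAAA. All 3 BDH1 sites, the intronic one included, had ATTAAA without AATAAA in the same window. The motif bound by NUDT21, TGTA (UGUA in RNA), was sought on the transcript strand in the 100 nt upstream. It was found before 3 of the 8, against 58.1% of 3′ UTR PACs. In OXCT1 it was absent from this window of the proximal site, and its only occurrence before the distal site was the last 4 bases of the stretch shown. In HMGCS1 the order was opposite, with 2 TGTA before the proximal site and none before the distal one. None of the 8 was followed by A-rich genomic sequence, which was seen after 1.41% of 3′ UTR PACs. These are matches of letters and not measured binding.

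**Figure D1:**
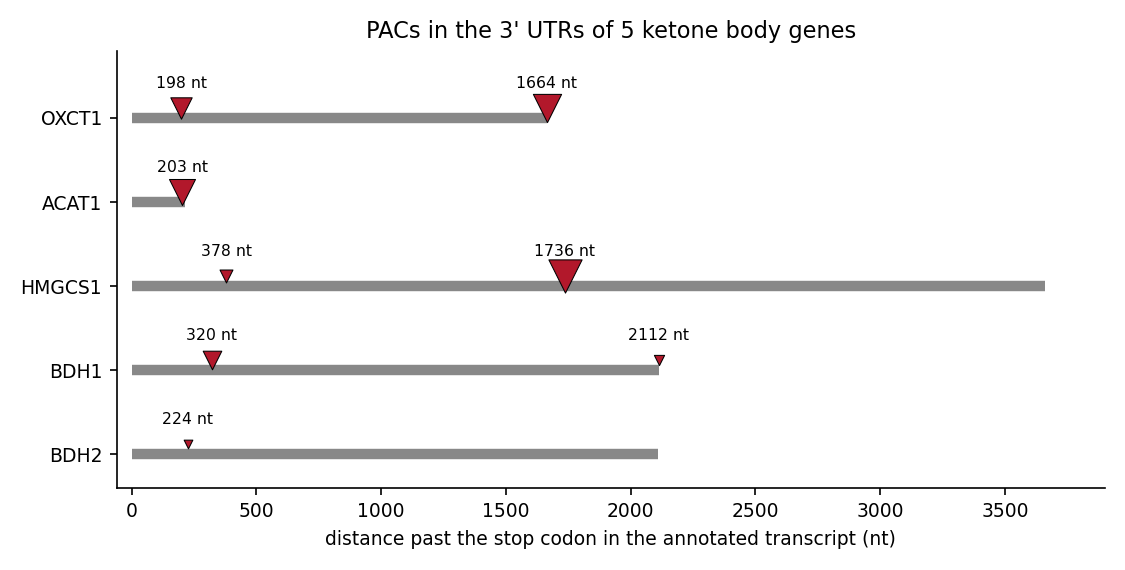
Position of each 3′ UTR PAC (triangles) along the annotated 3′ UTR (gray bars) of the canonical GENCODE 44 transcript, in nt past the stop codon. The area of a triangle grows with the highest TPM of the PAC in any library. OXCT1 has PACs at 198 and 1664 nt, HMGCS1 at 378 and 1736 nt and BDH1 at 320 and 2112 nt, while ACAT1 and BDH2 each have 1, at 203 and 224 nt.

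OXCT1 (ENSG00000083720.13) lies on chromosome 5 of GRCh38, minus strand, from 41730065 to 41870425, and both of its PACs are in the 3′ UTR in exon 17, the last exon of the canonical transcript. The proximal PAC (41731520 to 41731538) ends the message 198 nt past the stop codon and lies in the 3′ UTR of 4 annotated transcripts. The distal PAC (41730065 to 41730070) lies 1664 nt past the stop codon, at the annotated end of the canonical transcript and in the 3′ UTR of no other. The 1466 nt between the sites were 37.2% GC, near the median of 39.2% over 1715 genes with at least 2 3′ UTR PACs. They held 8 TGTA, or 5.46 per kb, against a median of 5.69 per kb.

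In KYSE30 the proximal OXCT1 PAC had 4.04 TPM (29 tags) with l-lactate and 7.68 TPM (57 tags) in the control. TPM here scales the tags of a PAC to all tags of its library, with no correction for length. In TE-1 it had 34.5 TPM (292 tags) with l-lactate and 58.3 TPM (606 tags) in the control. The proximal PAC was thus lower with l-lactate in both lines. The change was -47.4% in KYSE30 (95% counting interval -67.5% to -16.3%) against -40.9% in TE-1 (-48.8% to -31.9%).

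The distal OXCT1 PAC differed less. It had 17.6 TPM (126 tags) in KYSE30 with l-lactate and 17.8 TPM (132 tags) in the KYSE30 control, a change of -1.21% (-23.2% to 27.1%). In TE-1 it had 107 TPM (908 tags) with l-lactate and 99.2 TPM (1031 tags) in the control, a change of 8.09% (-1.25% to 18.3%). The higher distal share described next therefore came mostly with fewer proximal tags, and the interval of the distal change includes 0 in each line.

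Distal usage, the share of the tags of a gene in its most distal 3′ UTR PAC, was in KYSE30 81.3% with l-lactate (95% Wilson interval 74.4% to 86.6%) against 69.8% in the control (63.0% to 75.9%). The difference was 11.4 percentage points (2.27 to 20.2). In TE-1 distal usage was 75.7% with l-lactate (73.2% to 78.0%) and 63.0% in the control (60.6% to 65.3%), a difference of 12.7 points (9.28 to 16.0). The intervals are wider in KYSE30, where fewer tags were counted. All intervals cover counting error only. OXCT1 was chosen for these differences, so the intervals are no test of them.

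**Figure D2:**
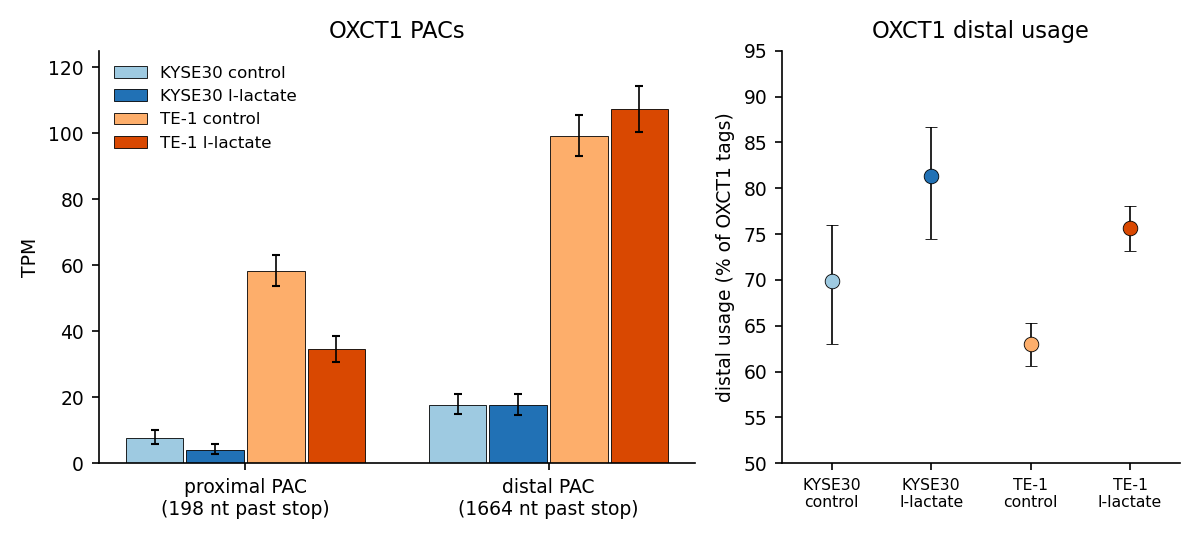
Left, TPM of the proximal and the distal OXCT1 PAC in each library, with exact Poisson 95% intervals. Right, OXCT1 distal usage in percent of its tags, with Wilson 95% intervals and an axis that starts at 50%. The proximal PAC is lower with l-lactate in both lines, the distal PAC is close to its control, and distal usage goes from 69.8% to 81.3% in KYSE30 and from 63.0% to 75.7% in TE-1.

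These values chose OXCT1. Among all genes measured, distal usage was higher by at least 10 points with l-lactate in 3.38% of 1628 genes in KYSE30, in 6.37% of 1632 in TE-1 and in 1.28% of 1247 in both. It was lower by as much in 5.96%, 5.09% and 1.2%. Of the 16 genes past 10 points in both lines, 8 had a level above 20 TPM in all libraries, and OXCT1 had rank 4 of these by the smaller of its changes. AZI2, just above it, differed by 15.2 points in KYSE30 and 12.1 in TE-1, and TMA16, just below it, by 11.1 and 13.5. At the limit itself, PWWP3A lay just inside (10.2 and 17.8 points) and SLC35C2 just outside (11.7 and 9.0). The genes whose distal usage over the 4 libraries was closest to that of OXCT1, by root-mean-square difference among 1921 genes, were PWWP3A (2.66 points), RCL1 (3.14) and AGGF1 (3.47).

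**Figure D3:**
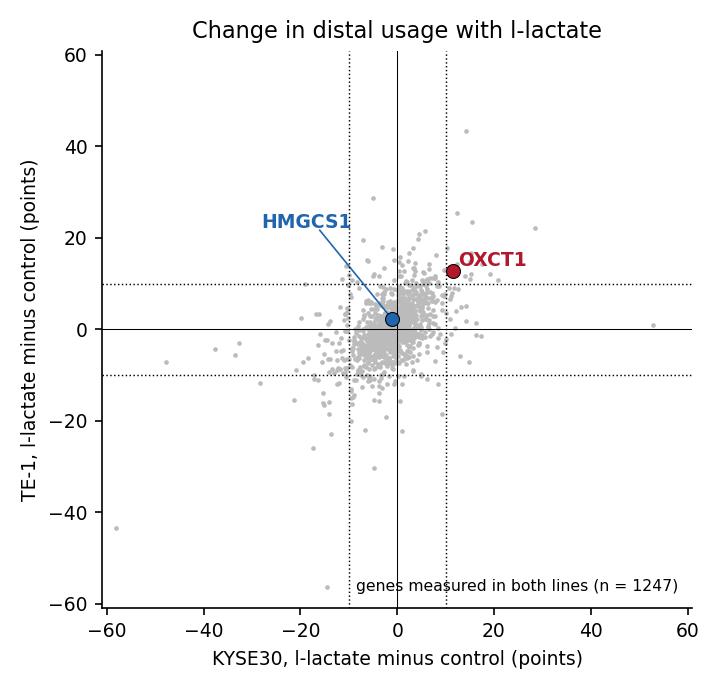
Change in distal usage, l-lactate minus control in percentage points, in KYSE30 (horizontal) and TE-1 (vertical) for the 1247 genes measured in both lines. Dotted lines mark 10 points either way. OXCT1 lies at 11.4 and 12.7 points, inside the upper right corner, and HMGCS1 near the origin at -1.01 and 2.17.

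The position of cleavage within the PACs of OXCT1 was steadier than their balance. The distal PAC had the same dominant site, 41730065, in all 4 libraries, with 69.8% to 73.4% of its tags. The proximal PAC was spread out, and its dominant site held only 27.1% to 31.6% of its tags. That site was 41731525 in both KYSE30 libraries and 41731531, 6 nt upstream, in both TE-1 libraries. The quantile positions of this PAC, 41731525 and 41731535, were the same in all 4. In KYSE30 the dominant site rested on 8 of 29 tags with l-lactate and 18 of 57 in the control. Tags at the other sites are not listed, so whether the highest site differs between the lines beyond counting error was not tested.

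HMGCS1 (ENSG00000112972.15), on chromosome 5, minus strand, from 43287470 to 43313512, also had a proximal and a distal PAC, in exon 11, the last exon, and 1358 nt apart. Neither reached the end of the annotated 3′ UTR, which runs 1925 nt beyond the distal site. In KYSE30 the distal PAC (43289392 to 43289780) had 42.6 TPM with l-lactate and 46.1 TPM in the control, and 151 TPM and 140 TPM in TE-1. The proximal PAC, a single position at 43290753, had 8.08 TPM in both KYSE30 libraries, and in TE-1 14.1 TPM with l-lactate against 16.6 TPM in the control. Most HMGCS1 tags thus came from the distal PAC in every library.

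In KYSE30, HMGCS1 distal usage was 84.1% with l-lactate against 85.1% in the control, a difference of -1.01 points (-6.19 to 4.10). In TE-1 it was 91.5% with l-lactate and 89.3% in the control, a difference of 2.17 points (0.0511 to 4.25). Neither came near 10 points.

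BDH1 (ENSG00000161267.12) lies on chromosome 3, minus strand, from 197509783 to 197573323. Its proximal and main PAC (197511570 to 197511581) lay 320 nt past the stop codon in exon 8, the last exon of the canonical transcript, and the other PACs were single positions. The distal PAC, at 197509783, marked the annotated end of the gene, and a further PAC, at 197516366, lay in intron 6, between exons 6 and 7, in no annotated exon. Cleavage there would end the message before its last 2 coding exons. The stretch between the 3′ UTR sites was 55.7% GC, above the 90th percentile of 51.5% over the 1715 genes.

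In KYSE30 the main BDH1 PAC had 37.6 TPM with l-lactate and 42.3 TPM in the control. The distal PAC had 7.53 TPM (54 tags) and 6.06 TPM (45 tags), and the intronic PAC 5.71 TPM (41 tags) and 5.39 TPM (40 tags). BDH1 was thus the member that mostly used its proximal 3′ UTR site. Its distal usage was 14.8% with l-lactate and 11.3% in the control, a difference of 3.52 points (-1.26 to 8.37), and the intronic PAC held 11.2% (8.39% to 14.9%) and 10.03% (7.45% to 13.4%) of its tags.

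In TE-1 only the main BDH1 PAC was listed, with 7.44 TPM with l-lactate and 8.37 TPM in the control. The lowest TPM of any single-position PAC in a library was between 3.07 and 3.10. At the KYSE30 shares, the distal PAC would have had 1.10 TPM in the TE-1 l-lactate library and 0.944 TPM in the TE-1 control, below this floor. A distal share in TE-1 equal to or below that of KYSE30 would thus not have been listed. Whether the lines differ at such shares cannot be read, and only a much larger distal share in TE-1 could have been seen.

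BDH2 (ENSG00000164039.15), on chromosome 4, minus strand, from 103077592 to 103099870, had 1 PAC, at 103079478 in the 3′ UTR in exon 10, the last exon. It was listed only in the l-lactate library of TE-1, with 3.42 TPM (29 tags), close to the floor for a single position, and its absence from the other libraries gives no direction. The position also lies within the span of SLC9B2 on the same strand. BDH2 did not pass the filter on level used for the tests, and the other 4 members did.

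The levels of the genes, as TPM summed over their PACs, differed far more between the lines than with l-lactate. In bulk libraries fewer cells carrying a message and less message per cell cannot be told apart. In KYSE30, OXCT1 had 21.6 TPM with l-lactate and 25.45 TPM in the control, and 142 TPM and 157 TPM in TE-1. ACAT1 (ENSG00000075239.14; chromosome 11, plus strand, 108116695 to 108147603), whose single PAC (108147574 to 108147600) lay in exon 12, the last exon, had 13.2 TPM and 15.2 TPM in KYSE30, and 83.6 TPM and 89.96 TPM in TE-1. HMGCS1 had 50.7 TPM and 54.1 TPM in KYSE30, and 165 TPM and 156 TPM in TE-1. For these 3 genes both TE-1 libraries were above both KYSE30 libraries.

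BDH1 went the other way. In KYSE30 it had 50.9 TPM with l-lactate and 53.7 TPM in the control, and 7.44 TPM and 8.37 TPM in TE-1. In the control libraries OXCT1 was 6.19-fold and ACAT1 5.91-fold higher in TE-1, and BDH1 was 6.42-fold higher in KYSE30.

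**Figure D4:**
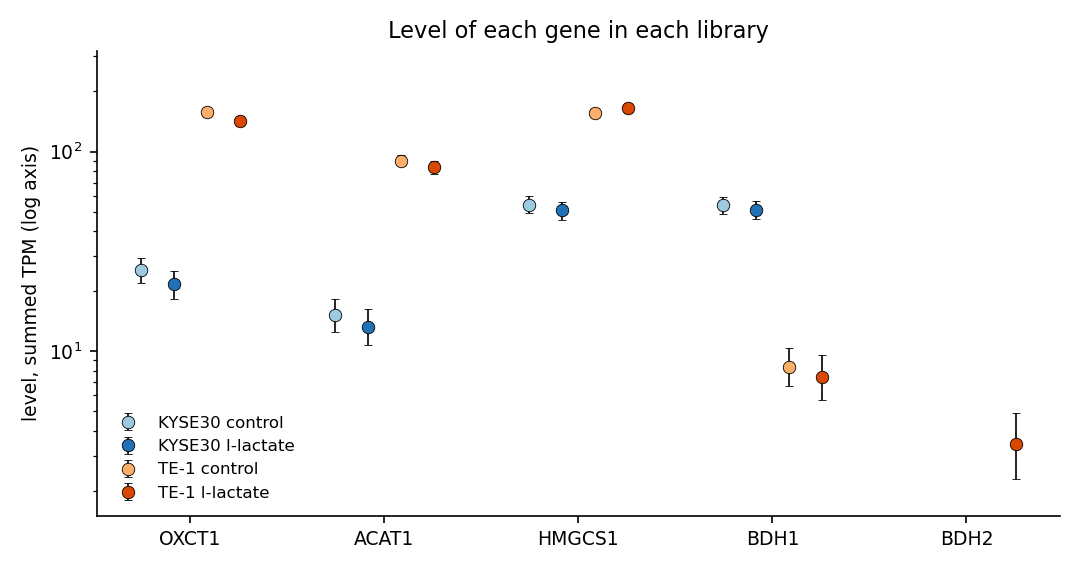
Summed TPM of each gene in each library on a log axis, with exact Poisson 95% intervals. OXCT1, ACAT1 and HMGCS1 are higher in TE-1 and BDH1 in KYSE30, while the l-lactate and control libraries of a line lie close together. BDH2 is listed in 1 library only.

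In a limma fit with the line and the treatment as terms, OXCT1 was higher in TE-1 by 2.62 ± 0.0955 (SE) on the log2(TPM + 1) scale, with an adjusted p of 1.43e-09. The differences were 2.53 ± 0.116 for ACAT1 (adjusted p = 7.66e-09), 1.598 ± 0.0872 for HMGCS1 (3.06e-08) and -2.58 ± 0.143 for BDH1 (3.39e-08). These 3 rises and 1 fall must be read against the background: 36.8% of 9134 genes passed the same test as higher in TE-1 and 36.9% as lower, so passing it sets no gene apart. The sizes were less common. A difference at least as large and in the same direction was seen in 5.08% of genes for OXCT1, 5.32% for ACAT1, 9.33% for HMGCS1 and 5.47% for BDH1. The median over all genes was 0.0019. The members were chosen with earlier results known and went both ways, so no summary over them is read. Both OXCT1 PACs took part, the proximal one 7.60-fold and the distal one 5.58-fold higher in TE-1 controls than in KYSE30 controls.

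Distal usage between the lines could be tested for HMGCS1 only. The difference, TE-1 minus KYSE30, was 5.85 ± 1.72 points (SE; adjusted p = 0.128 over 1921 genes, limma), which did not pass and does not show that the lines were alike. For OXCT1 it was -6.24 points, given without a test because the spread in that fit comes from the l-lactate changes that chose the gene. For BDH1 no test was read, since the distal PAC passed the 5 TPM limit in KYSE30 alone. At the KYSE30 shares it would be under the floor in TE-1. Of all genes, 5% passed as higher in TE-1 and 11.4% as lower. The OXCT1 libraries of the lines overlapped, since distal usage in TE-1 with l-lactate (75.7%) was above that in the KYSE30 control (69.8%), while both HMGCS1 values of TE-1 were above both of KYSE30.

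With l-lactate, 0 of the 3 members that could be tested passed in the same limma fit, and 0 had an unadjusted p under 0.05. ACAT1 differed by -0.15 ± 0.12 on the log2 scale (adjusted p = 0.735), HMGCS1 by -0.0046 ± 0.0872 (adjusted p = 0.995) and BDH1 by -0.11 ± 0.14 (adjusted p = 0.859). Over all 9134 genes, 2 passed as higher (0.0219%) and 0 as lower (0%), and 961 had an unadjusted p under 0.05. OXCT1, which was not tested, was 15.1% lower with l-lactate in KYSE30 (log2 ratio -0.24, counting interval -0.55 to 0.08) and 10.03% lower in TE-1 (-0.15, -0.26 to -0.04). The ACAT1 log2 ratio was -0.20 (-0.61 to 0.21) in KYSE30 and -0.11 (-0.25 to 0.04) in TE-1.

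The genes around the members were taken as 5 lists chosen with earlier results known, 56 genes of which 48 could be tested. Between the lines, 25 of the 48 passed as higher in TE-1 and 13 as lower, against 36.8% and 36.9% of all genes. Of the 48, 6 reached the mean of 5 TPM through 1 line alone, which fixes their direction, and without them 21 of 42 passed as higher and 11 as lower, against 35.02% and 34.54% of the 7679 genes that reached it in each line. With l-lactate 0 of the 48 passed in limma, with 3 at an unadjusted p under 0.05. Of 9 further genes of ketone body synthesis, use and transport, HMGCLL1 and OXCT2, a relative of OXCT1, had no listed PAC. In this list 5 genes were tested, of which 2 passed as higher in TE-1 and 3 as lower. Their median was -0.33 on the log2 scale, TE-1 minus KYSE30. Of the 4 that reached 5 TPM in each line, 1 passed as higher and 3 as lower. The shares over all genes are those just given. On the fitted TPM + 1 scale AACS, which activates acetoacetate in the cytosol, was 1.46-fold higher in TE-1.

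The monocarboxylate transporters, which carry lactate and ketone bodies, were split. On the same scale SLC16A1 (MCT1) was 1.26-fold and SLC16A3 (MCT4) 1.88-fold higher in KYSE30. SLC16A6 (MCT7), a ketone body exporter, was not listed in KYSE30 and in TE-1 had 74.9 TPM with l-lactate against 103 TPM in the control. SLC16A7 (MCT2) was listed only in TE-1, with 5.90 TPM and 2.50 TPM, and did not pass the filter. The adjusted p-values (limma) were 0.0155 for SLC16A1, 0.000313 for SLC16A3 and 0.000628 for AACS.

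In the mevalonate and cholesterol list, where HMGCS1 acts, 11 of 18 tested genes passed as higher in TE-1 and 3 as lower, with a median of 0.47 on the log2 scale against 0.0019 over all genes. Of the 15 that reached 5 TPM in each line, 10 passed as higher and 1 as lower, against the same 35.02% and 34.54%. EBP, an enzyme of sterol synthesis after squalene, was higher in TE-1 by 2.04, and MSMO1 was lower (-0.28). The other 3 are given as values. CYP51A1 had 1.53 TPM with l-lactate and 1.48 TPM in the control in KYSE30, against 10.8 and 9.53 TPM in TE-1. TM7SF2 had 14.2 and 14.1 TPM in KYSE30 and in TE-1 was listed in the control alone (1.64 TPM). DHCR7 had 13.8 and 9.97 TPM in KYSE30 against 4.13 and 2.98 TPM in TE-1.

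In the SREBP list, whose products control these genes, 5 of 8 passed as higher in TE-1 and 2 as lower, with a median of 0.56, and 4 and 2 of the 7 that reached 5 TPM in each line. Over all genes 36.8% passed as higher and 36.9% as lower. MBTPS2 (2.47) and INSIG1 (1.09) were higher in TE-1, and SREBF1 (-1.74) and MBTPS1 (-0.51) lower.

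Of 11 tested genes of fatty acid oxidation, which supplies acetyl-CoA, 5 passed as higher in TE-1 and 5 as lower, with a median of -0.04. Over all genes 36.8% passed as higher and 36.9% as lower. ACAA2, a mitochondrial thiolase, was higher by 2.90, CPT1A, which admits fatty acids into mitochondria, by 1.42 and the carnitine carrier SLC25A20 by 1.37. ECHS1 (-1.37), CPT2 (-1.02) and ACAA1 (-0.68) were lower. Of the 6 genes that make or use succinyl-CoA, the partner of acetoacetate at OXCT1, 2 passed as higher in TE-1 and none as lower. The shares over all genes are the same 36.8% and 36.9%. Of the 5 that reached 5 TPM in each line, 1 passed as higher, against 35.02% of all such genes. SUCLA2 was higher by 0.56. OGDH reached 5 TPM through TE-1 alone, with 9.80 TPM with l-lactate and 9.62 TPM in the control, and in KYSE30 was listed in the control alone (3.501 TPM).

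**Figure D5:**
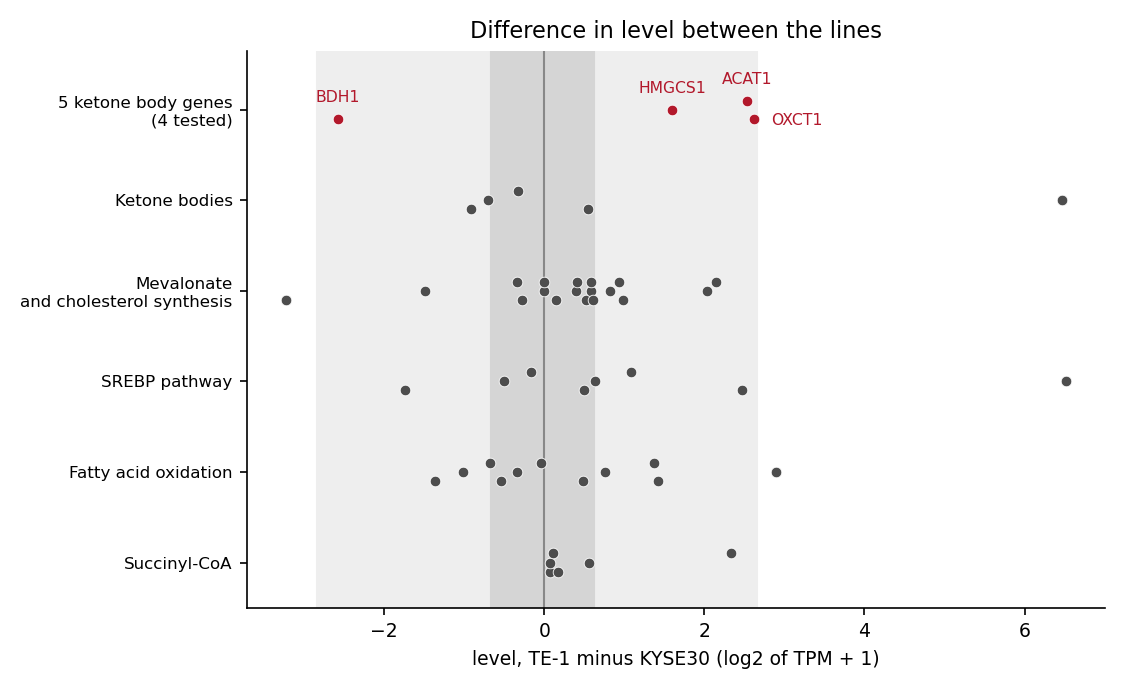
Level in TE-1 minus KYSE30 on the log2(TPM + 1) scale for each tested member and list gene (points). The dark and light bands hold the middle 50% and 90% of all 9134 genes, and the vertical line their median. OXCT1, ACAT1 and BDH1 lie near the edges of the light band, which runs from -2.84 to 2.66, and the fatty acid oxidation genes fall on both sides of 0.

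Few list genes had the 2 PACs needed for distal usage. In KYSE30 HADH, SC5D, INSIG1 and SREBF1 were measured, and in TE-1 HADH, SC5D, INSIG1 and SLC16A6. Only HADH, a dehydrogenase of fatty acid oxidation, which is named after its values were seen, passed 10 points, with 16.2 in TE-1 and 8.09 in KYSE30. The others lay between -2.74 and 7.80 points. With 4 genes a line, and 3.38% and 6.37% of all genes past 10 points upward, these counts say nothing of the pathways.

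Over the whole series, libraries held 7174991 to 10393799 tags, of which the listed PACs held 92.5% to 93.1%. Of 7 squamous markers, KRT5, KRT14, TP63 and SFN had no listed PAC in any library. KRT6A was listed only in KYSE30, KRT17 only in TE-1 and PERP in both. Of 10 markers of glandular, leukocyte and fibroblast cells, 3 had a listed PAC, CD68 (3.48 to 15.2 TPM), COL1A1 and PDGFRB, the last pair in TE-1 alone at 4.14 to 6.85 TPM. These markers also differed between the lines, and their part in the members' differences was not tested.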

How the data were processed

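The libraries were strand-specific. According to the methods of the study, trimmed reads were aligned to GRCh38 (p14 in the processing notes) with HISAT2, and CAGEr gave the sites, of which those within 24 nt were joined. Weak sites and weak single-site PACs had been removed. The deposited TPM of a PAC are RPM values as the authors made them, tags scaled to all tags of the library, with no correction for length. Positions are those of the deposited tables, with starts moved to count from 1. Every TPM was a whole multiple of 1 step per library within rounding, which gave tags. PACs were placed on GENCODE 44 by the dominant site of the library with the highest TPM, and sequence came from the reference genome of the same build. A PAC not listed was taken as 0.

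Gene levels, log2(summed TPM + 1), were fitted for genes with a mean of at least 5 TPM in limma 3.58.1 (R 4.3.3; eBayes with trend) with line and treatment as terms, which left 1 residual degree of freedom per gene. Adjusted p-values are Benjamini-Hochberg over all genes, called at 0.05. Distal usage needed 2 or more 3′ UTR PACs above 5 TPM in at least 1 library of the line (of all 4 for the fit between lines). Intervals are 95% Wilson, Newcombe, exact Poisson or exact binomial and cover counting error only. Scripts were tested on simulated data. Named were all members, the neighbors of OXCT1 in rank, its 3 closest genes, the genes of the ketone list and up to 3 called genes per direction in the other lists. Some genes that this rule covers are not reported here. A count of list genes with 5 TPM in each line was added after seeing the data. HADH and the genes at the limit of 10 points were named after their values were seen. Members and lists were chosen with earlier results of these data known. The other tools were matplotlib 3.10.9, pysam 0.24.0, SciPy 1.17.1, NumPy 2.4.6, pandas 2.3.3 and Python 3.11.15.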

Additional observations from a re-analysis of the deposited data

Results flagged for a closer look

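HMGCS1 was the member whose values with l-lactate pointed in opposite directions in the lines. On the log2(TPM + 1) scale its level differed by -0.092 in KYSE30 and by 0.083 in TE-1. The counting interval of the log2 ratio ran from -0.30 to 0.11 in KYSE30 and from -0.02 to 0.19 in TE-1. Each interval holds values of both signs. HMGCS1 distal usage differed by -1.01 percentage points in KYSE30 against 2.17 in TE-1. With 1 library per condition the difference between the lines was not tested.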

How the results depend on the processing

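The differences in level of OXCT1, ACAT1, HMGCS1 and BDH1 between the lines kept their direction and stayed past the threshold (limma) under every other pseudocount, filter, scaling and choice of PACs tried. The size of the adjusted p did not hold, and for HMGCS1 it ran from 1.04e-63 to 0.00017 over these limma fits, since 1 residual degree of freedom per gene leaves the spread to be pooled over genes. Libraries of a single treatment or line give a value without a test. For HMGCS1 the difference was 1.51 in the control libraries alone and 1.69 in the l-lactate libraries alone, and its l-lactate difference was -0.092 in KYSE30 alone and 0.083 in TE-1 alone, of opposite sign. The choices of sites could not move the distal usage of OXCT1, whose only PACs are both in the 3′ UTR and listed in all libraries, and a minimum of 10 TPM removed it in KYSE30, where its proximal PAC reached 7.68 TPM. The fitted BDH1 difference in distal usage between the lines was -13.0 points, -14.6 as a share of 3′ UTR tags or -3.43 on the logit scale. The TE-1 values of 0 stand for an unlisted PAC, which at the KYSE30 shares would be under the floor. Neither the sign nor the size of this difference was therefore read. The dominant site of the proximal OXCT1 PAC was 6 nt upstream in TE-1, and the midpoint of the quantile positions 0 nt away.

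Counts over all genes moved more. Genes lower in TE-1 numbered 3369 of 9134 tested, and 2188 of 5810 tested with a mean of at least 20 TPM. Genes higher with l-lactate numbered 2, and 0 with a pseudocount of 0.5, with no filter or with median-of-ratios scaling, 26 from 20 TPM, 98 with PACs listed in all libraries and 118 with a pseudocount of 5. Genes lower numbered 0, and 1 with 3′ UTR PACs only, 8 from 20 TPM, 51 with PACs listed in all libraries and 56 with a pseudocount of 5. No tested member was among them. Distal usage between the lines passed in 96 genes as higher and 219 as lower in TE-1, and in 0 and 0 with a minimum TPM of 1. Genes up and down in distal usage with l-lactate numbered 55 and 97 in KYSE30, then 104 and 83 in TE-1, in which order the next counts stand. Lowering the TPM limit to 1, where more genes were measured, gave 146 and 226, and 195 and 195. Raising it to 10, where fewer genes were measured, gave 14 and 50, and 52 and 37. From 5 points they were 188 and 306, and 314 and 266, and from 20 points 4 and 13, and 12 and 12. In KYSE30 they were 26 and 61 with Fisher's exact test on tags in addition, and 33 were up with PACs listed in all libraries. The cause was not tested. The planned count model on whole tags was not run. The line term sets l-lactate against control within each line. With 1 library per line and treatment, no further pairing was possible. The floor for single-position PACs limits BDH1 in TE-1 and BDH2 in particular.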
